A study of Rattus norvegicus with 8 samples.

Results

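Chemokines are small secreted proteins that steer the movement of leukocytes and other cells, and their receptors are G protein-coupled receptors that signal mainly through inhibitory G proteins. The ligands are classed by the spacing of their conserved cysteines as CC, CXC, CX3C and XC, and the receptors carry the name of the class they bind. In the ovary, leukocytes are resident in the stroma and theca and enter follicles around ovulation and the corpus luteum during its regression, and chemokines made by follicular, stromal and endothelial cells are known to take part in that traffic. Here the members of both families were read in rat ovary after a gonadotropin injection. A gene was taken as a member where the array's gene name began with Ccl, Cxcl, Cx3cl or Xcl, or was Pf4 or Ppbp, for the ligands, or began with Ccr, Cxcr, Cx3cr or Xcr, each followed by its number, for the receptors. This gave 56 genes on 62 probes, 36 of them ligands and 20 receptors, of 26204 gene names on the array.

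The arrays came from ovaries of 28-day-old female rats, 4 labelled control and 4 labelled PMSG. PMSG, pregnant mare serum gonadotropin, acts like follicle-stimulating hormone with some luteinising activity. Rats of the PMSG group had received 50 IU under the skin at 26 days of age, carried in 0.2 ml of phosphate buffer with albumin, and controls this vehicle alone, 48 h before the ovaries were removed. Both groups were immature, and the strain is not given in the sources used here. Nothing in the labels says whether each array holds the RNA of 1 rat, so the p-values measure only the spread between these arrays, which may be technical.

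Each 1-colour array was read at its 75th percentile, which lay between a signal of 769 and 1103, and 80.8% to 84.6% of probes were well above background. A level is given throughout as the log2 signal minus the array's own 75th percentile, so that a level of 0 is the brightness of that percentile, and levels of different genes are not set against each other. The ovarian identity of the RNA was borne by Inha, Foxl2 and Fshr of granulosa cells and by Zp3, Gdf9 and Zar1 of the oocyte, all well above background on all 8 arrays. Directions follow the sample titles, and each difference is PMSG minus control. They are stated by label because the luteinising hormone receptor gene Lhcgr (-1.93, limma adjusted p = 0.00114) and the steroid synthesis genes Cyp11a1 (-3.36, limma adjusted p = 0.000232) and Star (-2.75, limma adjusted p = 0.00541) were lower in arrays labelled PMSG, against the generally known response to gonadotropin.

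Among the chemokine genes, the monocyte attractants Ccl2, Ccl7 and Ccl12 and the neutrophil attractant Cxcl1 were lower in arrays labelled PMSG by 1.43 to 2.13 on the log2 scale. In the same arrays the lymphoid homing ligands Ccl19 and Ccl21, the membrane-bound ligands Cx3cl1 and Cxcl16, and the receptors Ccr10 and Cx3cr1 were higher. In bulk tissue, a change in the number of cells of a type and a change in RNA per cell cannot be told apart. Of the 56 genes, 48 were tested, which required a probe well above background on at least 4 of the 8 arrays. A gene was called at a limma adjusted p under 0.05, with adjustment over all 25303 tested probes, and was read from its brightest tested probe. Of the 48, 26 (54.2%) were called, beside 34.2% of all tested probes. Higher levels in arrays labelled PMSG were called for 18 genes (37.5%), where the share over all tested probes was 17.6%, and lower levels for 8 (16.7%), where it was 16.6%. The share of lower genes thus lay at the background, and the excess was on the higher side.

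The median log2 difference of the 48 genes was 0.51, beside 0.11 over all tested probes, and 36 of the 48 differences were above 0. In 25 of the 48 genes (52.1%) the values of the arrays of each label did not overlap, beside 36.6% of all tested probes. Of 31 tested ligands 13 were higher and 6 lower, with a median of 0.50. Of 17 tested receptors 5 were higher and 2 lower, with a median of 0.52. Within the ligands, 12 of 17 CC genes were called, 8 higher and 4 lower, and 5 of 12 CXC genes, 3 higher and 2 lower. The split depends on the scaling: with each array centred on its median, 14 members were higher and 9 lower, and with quantile normalization 15 were higher and 8 lower. The background moved as well. With median centring 33.4% of all tested probes were called, 34.5% of these higher. With quantile normalization 35.8% were called, 46.2% of these higher, and in the main fit 51.4% of the called probes were higher.

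**Figure D1:**
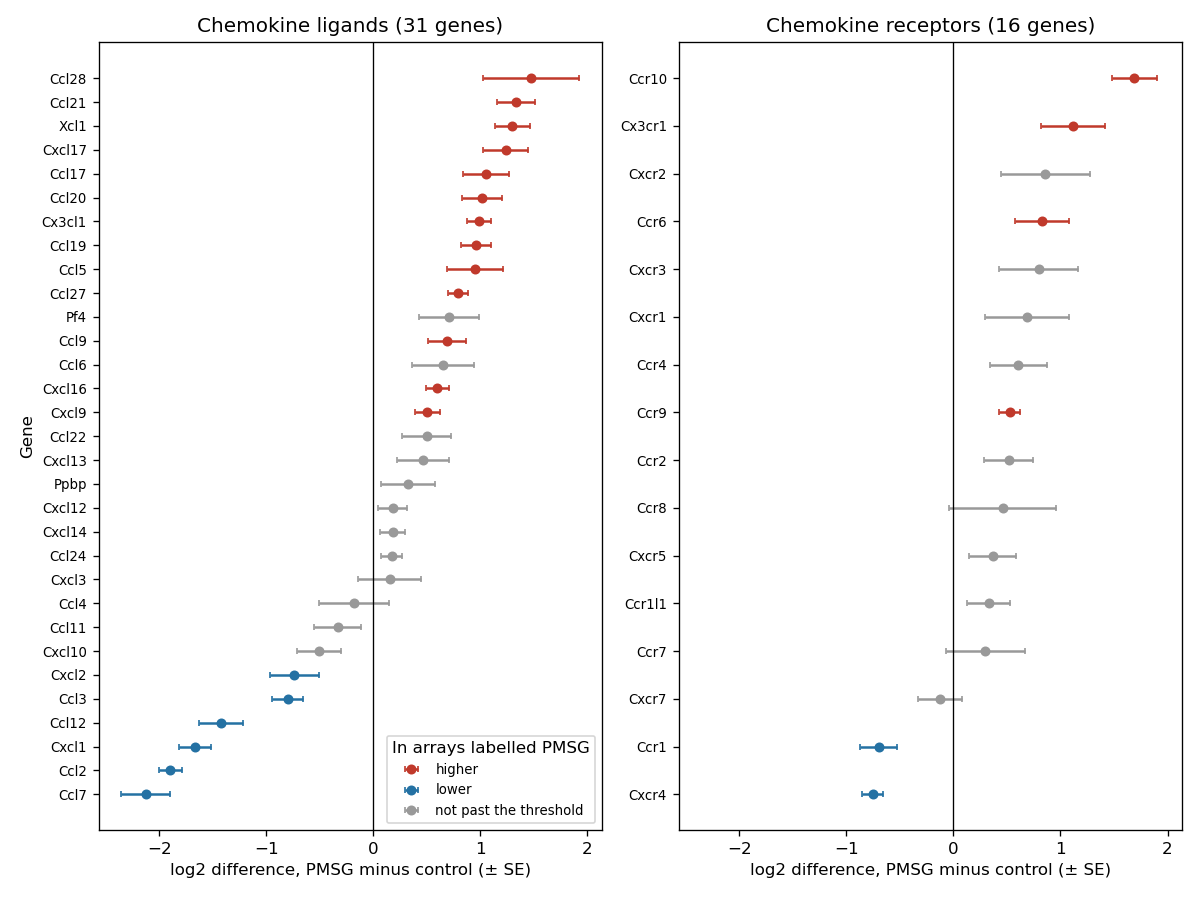
Log2 difference (PMSG minus control, with its SE) of each of the 31 tested chemokine ligands and of 16 receptors, 4 arrays a label, coloured by whether the gene passed the threshold and in which direction. Ccl7, Ccl2, Cxcl1 and Ccl12 form the lower end at -2.13 to -1.43, and Ccl21 and Xcl1 lie at 1.33 and 1.30. Ccr10 and Ccl28 are drawn at 1.69 and 1.47, but were well above background on only 3 and 2 of the 4 control arrays, so their place in the order is not settled.

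Ccl2 and Ccl7, which both draw monocytes through the receptor Ccr2, showed large differences. Ccl2 stood at 0.24, 0.31, 0.57 and 0.36 on control arrays 1 to 4 and -1.47, -1.41, -1.59 and -1.64 on PMSG arrays 1 to 4. Its probe lies on chromosome 10, 70257919 to 70257978 in the build rn4, and the log2 difference, with its SE as for every difference here, was -1.90 ± 0.11 (limma adjusted p = 3.74e-05). No control array overlapped a PMSG array, and the 4 arrays within each label lay close together. Ccl7 stood at -2.30, -2.42, -1.58 and -2.08 on control arrays 1 to 4 and -3.89, -4.04, -4.64 and -4.32 on PMSG arrays 1 to 4, a difference of -2.13 ± 0.23 (limma adjusted p = 0.000378) for its probe on chromosome 10, 70268674 to 70268733. The groups were again apart by over 1 log2 unit between their nearest arrays. Under normexp background correction the Ccl7 difference was -1.32.

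Ccl12, another monocyte-attracting CC ligand found in rodents, stood at -1.54, -1.46, -1.38 and -1.0 on control arrays 1 to 4 and -2.54, -3.33, -2.58 and -2.63 on PMSG arrays 1 to 4. The difference was -1.43 ± 0.21 (limma adjusted p = 0.00133), with its probe on chromosome 10, 70322447 to 70322506, and PMSG array 2 lay lowest, below the other 3 of its label. Ccl3, an inflammatory ligand of Ccr1 made by activated macrophages and other leukocytes, stood at -2.83, -3.48, -3.16 and -3.34 on control arrays 1 to 4 and -4.03, -3.98, -3.92 and -4.08 on PMSG arrays 1 to 4. Its difference of -0.80 ± 0.15 (limma adjusted p = 0.00384) was smaller, with no overlap, and came to -0.42 under normexp. Ccl4, its close relative, was not called at -0.18 (limma adjusted p = 0.684). Its levels of -4.96, -5.29, -5.59 and -5.72 on the control arrays and -5.74, -5.15, -4.98 and -6.42 on the PMSG arrays overlapped widely.

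Cxcl1 and Cxcl2 are ligands of Cxcr2 that draw neutrophils, and both were lower. Cxcl1 stood at -3.14, -3.02, -3.21 and -2.79 on control arrays 1 to 4 and -4.54, -4.71, -5.03 and -4.52 on PMSG arrays 1 to 4, without overlap. Its difference was -1.66 ± 0.15 (limma adjusted p = 0.000201) for the probe on chromosome 14, 18690468 to 18690527, and -0.82 under normexp. Cxcl2 was the weakest of the lower ligands: it stood at -4.70, -5.27, -4.64 and -5.19 on control arrays 1 to 4 and -5.18, -6.07, -5.64 and -5.86 on PMSG arrays 1 to 4. PMSG array 1 lay within the control range there, and the difference was -0.74 ± 0.23 (limma adjusted p = 0.0376). That call was lost in 8 of 18 alternative settings, namely normexp (-0.13, limma adjusted p = 0.449), array weights (0.0721) and the fits without control array 1, 3 or 4 or PMSG array 2, 3 or 4 (0.052 to 0.0939). Cxcl3, a further ligand of Cxcr2, was not called at 0.16 (limma adjusted p = 0.698), and its sign turned with the scaling. A second Cxcl3 probe was well above background on 0 of 8 arrays.

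**Figure D2:**
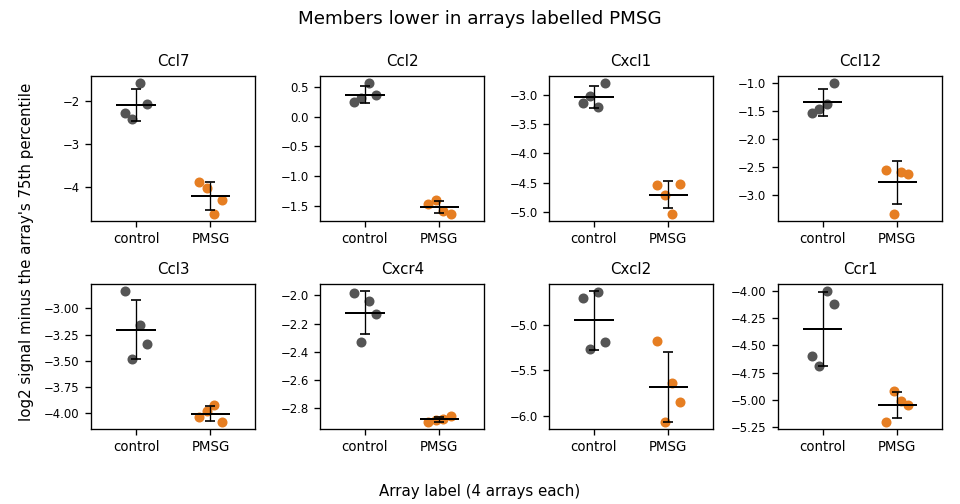
Level (log2 signal minus the array's 75th percentile) of the 8 chemokine genes called lower, with 1 point per array, a line at each label's mean and bars of 1 SD (n = 4). In 7 of the 8 genes every PMSG array lies below every control array, and only Cxcl2 overlaps.

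Many chemokine genes carry sites for the transcription factor NF-kappa B. The promoters of members called lower were therefore set beside those of other members. RefSeq promoters of the build GRCr8 were matched by the probe's RefSeq transcript, or else by symbol, for 42 of the 56 members. Cxcl5 was matched in this way to the gene that RefSeq names Cxcl6, and Cxcr7 to Ackr3. The 250 bases before the annotated start were searched on both strands. The kappa B consensus, whose matches on the opposite strand overlap, was found in 9 of the 42 members (21.4%) and in 6.33% of 33469 promoters. It lay in 3 of the 6 lower members with a promoter (Cxcl1, Cxcl2 and Ccl7), in 2 of the 14 higher ones (Ccl20 and Ccl9), in 1 of the 14 that were tested and not called (Cxcl10), and in the untested Cxcl5, Cxcl11 and Ccr3. The lower ligands Ccl2 and Ccl3 had no matched promoter and were not searched. The 6 lower members searched included the receptors Ccr1 and Cxcr4. The motif search was chosen after the values had been seen. The 130 bases before the start of the tested genes that hold a match are shown 5′ to 3′ in the direction of transcription, with matches to the kappa B consensus in capitals.
Cxcl1, chr14:17479322-17479451, minus strand: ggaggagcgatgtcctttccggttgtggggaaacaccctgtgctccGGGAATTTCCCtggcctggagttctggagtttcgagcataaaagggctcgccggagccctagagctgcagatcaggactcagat
Cxcl2, chr14:17467256-17467385, minus strand: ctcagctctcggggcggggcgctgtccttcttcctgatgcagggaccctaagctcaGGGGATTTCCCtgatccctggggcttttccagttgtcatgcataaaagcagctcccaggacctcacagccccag
Ccl7, chr10:67513965-67514094, plus strand: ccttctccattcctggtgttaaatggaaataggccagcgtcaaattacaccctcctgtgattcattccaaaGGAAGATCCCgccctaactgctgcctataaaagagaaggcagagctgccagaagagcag
Ccl20, chr9:91837029-91837158, plus strand: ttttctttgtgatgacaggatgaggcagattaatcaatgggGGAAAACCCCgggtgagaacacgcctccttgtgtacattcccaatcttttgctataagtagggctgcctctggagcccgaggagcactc
Ccl9, chr10:68868878-68869007, minus strand: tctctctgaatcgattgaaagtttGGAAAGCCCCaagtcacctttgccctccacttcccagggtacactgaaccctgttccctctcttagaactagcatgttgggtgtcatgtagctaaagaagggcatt
Cxcl10, chr14:15988936-15989065, plus strand: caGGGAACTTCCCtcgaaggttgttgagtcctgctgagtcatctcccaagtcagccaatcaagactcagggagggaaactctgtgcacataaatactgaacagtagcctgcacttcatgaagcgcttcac

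Counted back from the start at -1, the capitals lie from -84 to -74 in Cxcl1, from -74 to -64 in Cxcl2 and from -59 to -50 in Ccl7. Ccl20, with its match from -89 to -80, and Ccl9, from -106 to -97, were higher in arrays labelled PMSG, so genes with a match were found in both directions. Cxcl10 holds a further match from -187 to -178, outside the printed stretch. The AP-1 motif TGANTCA was found in 7 of the 42 member promoters (16.7%) and in 6.34% of all promoters, and TATAAA in 13 (31.0%) and 12.9%. The interferon-response motif GAAANNGAAA was found in 2 (4.76%) and in 3.41%. These matches are letters in a window and do not show binding.

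Among the higher ligands, Ccl19 and Ccl21 guide lymphocytes and dendritic cells through the shared receptor Ccr7. Ccl21 stood at 0.96, 1.55, 1.65 and 1.1 on control arrays 1 to 4 and 2.46, 2.85, 2.54 and 2.76 on PMSG arrays 1 to 4, a difference of 1.33 ± 0.18 (limma adjusted p = 0.000999) for the probe on chromosome 5, 59239182 to 59239241. Ccl19 stood at -0.13, -0.06, -0.19 and -0.51 on control arrays 1 to 4 and 0.60, 0.82, 0.95 and 0.59 on PMSG arrays 1 to 4, a difference of 0.96 ± 0.14 (limma adjusted p = 0.00128). Both ligands were higher on all 4 PMSG arrays than on any control array. Their receptor gene Ccr7 stood at -5.21, -5.86, -5.52 and -6.13 on control arrays 1 to 4 and -4.74, -5.71, -4.80 and -6.28 on PMSG arrays 1 to 4, and its difference of 0.30 ± 0.37 (limma adjusted p = 0.548) did not pass.

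Cx3cl1, or fractalkine, is made as a membrane-bound ligand and released by proteases such as Adam10 and Adam17, and its receptor Cx3cr1 is typical of monocytes and macrophages. Cx3cl1 stood at 1.69, 1.73, 1.92 and 1.99 on control arrays 1 to 4 and 2.71, 2.85, 2.74 and 2.98 on PMSG arrays 1 to 4, a difference of 0.98 ± 0.11 (limma adjusted p = 0.000477) with its probe on chromosome 19, 10667029 to 10667088. Within each label its 4 values lay close together. Cx3cr1 stood at -1.24, -1.75, -1.78 and -1.40 on control arrays 1 to 4 and -0.45, -0.77, 0.44 and -0.92 on PMSG arrays 1 to 4, a difference of 1.12 ± 0.30 (limma adjusted p = 0.0204). PMSG array 3 was the highest, and all 4 PMSG arrays lay above the controls. Leaving out control array 2 (limma adjusted p = 0.0566) or control array 3 (limma adjusted p = 0.0539) ended the call. Ligand and receptor thus were both higher in arrays labelled PMSG, while Adam10 (-0.07, limma adjusted p = 0.81) and Adam17 (-0.02, limma adjusted p = 0.946) were not called.

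Cxcl16, the other ligand made in a membrane-bound form, stood at 1.07, 0.84, 0.87 and 1.01 on control arrays 1 to 4 and 1.5, 1.59, 1.39 and 1.71 on PMSG arrays 1 to 4. It was higher by 0.60 ± 0.11 (limma adjusted p = 0.00346), a call that was lost with median centring (0.43, limma adjusted p = 0.0757). Its receptor gene Cxcr6 was not tested, being well above background on 3 PMSG arrays and on 0 control arrays. Ccl20, which draws Ccr6-bearing lymphocytes and dendritic cells to epithelia, stood at -4.80, -5.01, -4.66 and -5.01 on control arrays 1 to 4 and -3.73, -4.19, -4.08 and -3.41 on PMSG arrays 1 to 4. Its difference was 1.02 ± 0.19 (limma adjusted p = 0.00398), and a second, largely overlapping probe gave 1.33 (limma adjusted p = 0.00117). Under normexp the Ccl20 difference was 0.54. Ccr6 stood at -5.41, -5.28, -5.23 and -6.20 on control arrays 1 to 4 and -4.61, -4.89, -5.01 and -4.29 on PMSG arrays 1 to 4, a difference of 0.83 ± 0.25 (limma adjusted p = 0.034). Under normexp the Ccr6 difference was 0.35. The receptor's call was not firm: it was lost in 8 of 18 settings, among them quantile normalization (0.54, limma adjusted p = 0.196), median centring (0.0943) and the fits without control array 1 or 4 or PMSG array 1, 2 or 4 (0.052 to 0.0777).

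Xcl1, a ligand of T and natural killer cells that draws Xcr1-bearing dendritic cells, stood at -3.79, -4.27, -4.15 and -4.01 on control arrays 1 to 4 and -2.54, -2.63, -2.71 and -3.15 on PMSG arrays 1 to 4. Its difference was 1.30 ± 0.16 (limma adjusted p = 0.000742), and under normexp 0.84. A second probe, well above background on 3 of the 4 control arrays, gave 2.00 (limma adjusted p = 9.03e-04). Xcr1 was not well above background on any array on either of its probes. Cxcl17, a mucosal chemokine, stood at -1.95, -2.35, -1.89 and -2.08 on control arrays 1 to 4 and -1.26, -1.01, -0.77 and -0.29 on PMSG arrays 1 to 4, a difference of 1.24 ± 0.21 (limma adjusted p = 0.00284) without overlap. For both ligands every PMSG array was the brighter.

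Ccl27 and Ccl28 are ligands of Ccr10 and are best known from epithelia, and all 3 genes of this axis were higher. Ccr10 was higher by 1.69 ± 0.21 (limma adjusted p = 0.000719), with levels of -7.35, -6.47, -6.42 and -6.44 on control arrays 1 to 4 and -5.08, -4.94, -4.87 and -5.03 on PMSG arrays 1 to 4. It was well above background on 3 of the 4 control arrays, control array 1 was the lowest, and under normexp, which adds an offset of 50 to every signal, the difference was 0.49 (limma adjusted p = 0.00513). Ccl27 stood at -1.74, -1.73, -1.61 and -1.75 on control arrays 1 to 4 and -0.76, -0.94, -0.92 and -1.05 on PMSG arrays 1 to 4, a difference of 0.79 ± 0.09 (limma adjusted p = 0.000594), with little spread inside each label. Ccl28 stood at -6.82, -7.07, -5.08 and -6.43 on control arrays 1 to 4 and -4.74, -5.48, -5.05 and -4.24 on PMSG arrays 1 to 4, a difference of 1.47 ± 0.45 (limma adjusted p = 0.0349). It overlapped between labels at control array 3 and was well above background on only 2 of 4 control arrays, and under normexp its difference was 0.44. Its call was lost with quantile normalization (limma adjusted p = 0.0857), with the deposited values (0.0521) and without control array 1, 2 or 4 or PMSG array 1, 3 or 4 (0.0616 to 0.0886).

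Ccl5 and Ccl9, both ligands of Ccr1, were higher, where Ccl3 was lower. Ccl5 stood at -0.07, -0.28, -0.25 and 0.55 on control arrays 1 to 4 and 0.96, 1.26, 1.21 and 0.32 on PMSG arrays 1 to 4. Its difference was 0.95 ± 0.26 (limma adjusted p = 0.0234), control array 4 overlapped PMSG array 4, and the call was lost without any 1 of control arrays 1, 2 and 3 or PMSG arrays 1, 2 and 3 (limma adjusted p = 0.0537 to 0.065). Ccl9 stood at -3.98, -3.96, -4.09 and -4.07 on control arrays 1 to 4 and -3.13, -3.45, -2.96 and -3.79 on PMSG arrays 1 to 4, a difference of 0.69 ± 0.18 (limma adjusted p = 0.018) without overlap and 0.46 under normexp. Ccl17, a ligand of Ccr4 that draws T cells, stood at -6.13, -6.22, -6.12 and -6.58 on control arrays 1 to 4 and -5.71, -5.39, -4.84 and -4.90 on PMSG arrays 1 to 4, a difference of 1.05 ± 0.21 (limma adjusted p = 0.00657). It lost its call under quantile normalization (0.72, limma adjusted p = 0.0815), and under normexp its difference was 0.37.

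Of the interferon-induced ligands of Cxcr3, Cxcl9 was higher and Cxcl10 was not called. Cxcl9 stood at -2.0, -1.94, -1.92 and -1.98 on control arrays 1 to 4 and -1.50, -1.31, -1.28 and -1.72 on PMSG arrays 1 to 4, a difference of 0.51 ± 0.12 (limma adjusted p = 0.0115). Cxcl10 stood at -0.80, -1.16, -0.98 and -0.18 on control arrays 1 to 4 and -1.19, -1.50, -1.27 and -1.20 on PMSG arrays 1 to 4, a difference of opposite sign, -0.51 ± 0.21 (limma adjusted p = 0.0935), which missed the threshold although the arrays of each label did not overlap. Cxcl11, well above background on 2 of 8 arrays, was not tested. Cxcr3 stood at -4.83, -5.75, -6.14 and -4.86 on control arrays 1 to 4 and -4.33, -3.98, -5.16 and -4.93 on PMSG arrays 1 to 4, and its difference was 0.79 ± 0.37 (limma adjusted p = 0.133).

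**Figure D3:**
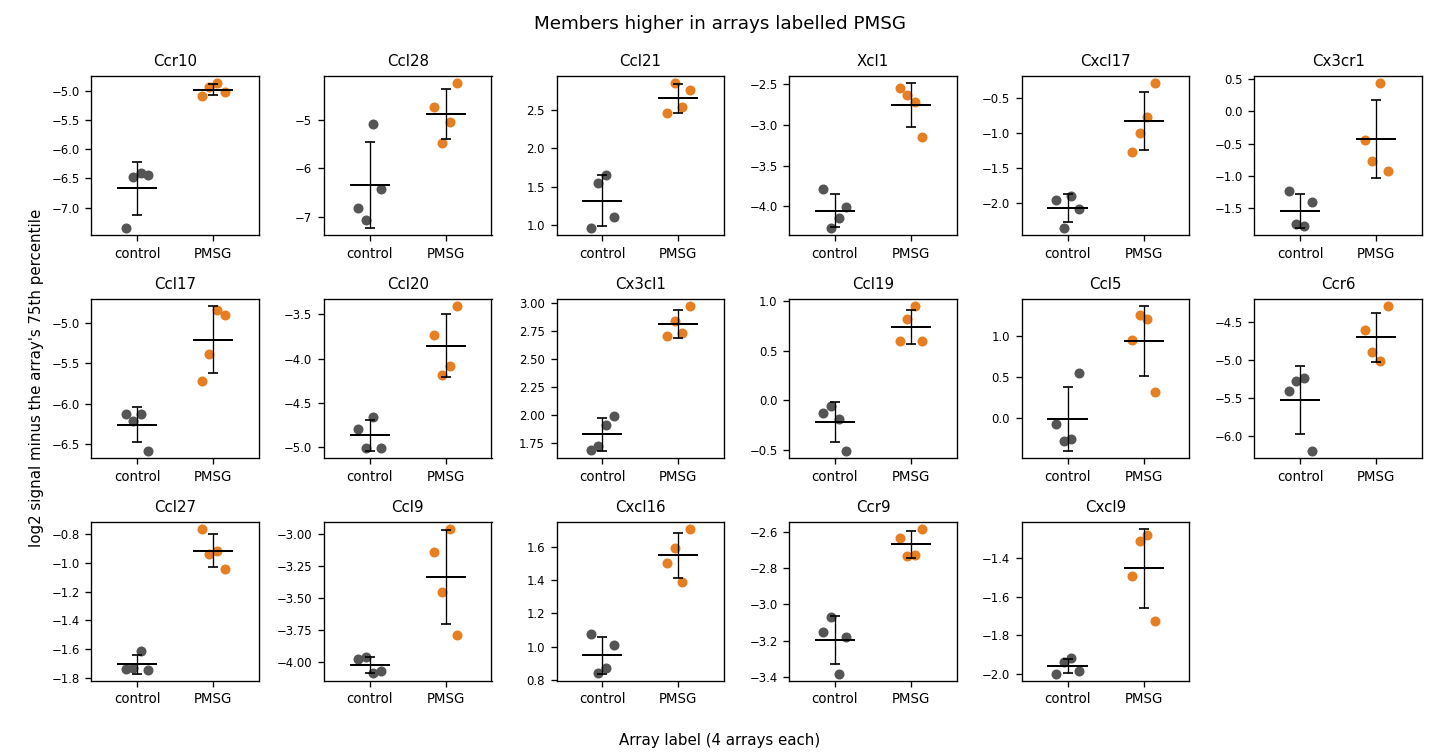
Level (log2 signal minus the array's 75th percentile) of 17 chemokine genes called higher, with 1 point per array, a line at each label's mean and bars of 1 SD (n = 4). In 15 of the 17 genes every PMSG array lies above every control array, and Ccl28 and Ccl5 overlap.

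The homeostatic ligands Cxcl12 and Cxcl14, and the receptors of Cxcl12, did not move as a set. Cxcl12, which retains blood cells and acts on Cxcr4 and Cxcr7, stood at 2.56, 2.37, 2.86 and 2.32 on control arrays 1 to 4 and 2.72, 2.57, 2.74 and 2.80 on PMSG arrays 1 to 4. Its difference was 0.18 ± 0.14 (limma adjusted p = 0.322), and a second probe gave -0.17 (limma adjusted p = 0.28), so neither probe was called and their signs differed. Cxcr4 stood at -1.98, -2.33, -2.04 and -2.13 on control arrays 1 to 4 and -2.90, -2.88, -2.88 and -2.85 on PMSG arrays 1 to 4, lower, at a difference of -0.75 ± 0.10 (limma adjusted p = 0.000945) with its probe on chromosome 13, 41308900 to 41308959. The 4 PMSG arrays lay close together and below every control array. Cxcr7, an atypical receptor that takes up Cxcl12, stood at -0.62, -0.95, -0.57 and -1.12 on control arrays 1 to 4 and -1.06, -0.41, -1.15 and -1.14 on PMSG arrays 1 to 4 and was not called at -0.13 ± 0.20 (limma adjusted p = 0.646). Cxcl14 was not called either, at 0.18 ± 0.12 (limma adjusted p = 0.259).

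Ccr1, a receptor of Ccl3, Ccl5 and Ccl9, stood at -4.59, -4.69, -4.0 and -4.12 on control arrays 1 to 4 and -5.21, -4.92, -5.01 and -5.05 on PMSG arrays 1 to 4. It was lower, at a difference of -0.70 ± 0.17 (limma adjusted p = 0.0158) with no overlap between labels, and the call was lost under normexp (-0.22, limma adjusted p = 0.175). Ccr9, which guides T cells to gut and thymus, stood at -3.15, -3.07, -3.38 and -3.18 on control arrays 1 to 4 and -2.63, -2.74, -2.73 and -2.59 on PMSG arrays 1 to 4, a difference of 0.52 ± 0.10 (limma adjusted p = 0.00474). That call was lost with quantile normalization (0.37, limma adjusted p = 0.0615) and median centring (0.36, limma adjusted p = 0.0998). The gene of its ligand, Ccl25, passed background on 3 of 8 arrays and was not tested. Its signals before scaling ran from 2.37 to 149.9.

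The receptors through which Ccl2 and Cxcl1 act were not called. Ccr2, the receptor of Ccl2 and Ccl7, stood at -4.15, -4.88, -5.06 and -5.09 on control arrays 1 to 4 and -4.04, -4.51, -4.09 and -4.46 on PMSG arrays 1 to 4, a difference of 0.52 ± 0.23 (limma adjusted p = 0.114). Cxcr2, the receptor of Cxcl1 and Cxcl2, stood at -4.55, -5.39, -4.40 and -6.27 on control arrays 1 to 4 and -3.94, -4.56, -3.93 and -4.74 on PMSG arrays 1 to 4, a difference of 0.86 ± 0.42 (limma adjusted p = 0.146). Both differences had a sign opposite to those of their ligands and did not pass the threshold. Cxcl13 and its receptor Cxcr5, which organise B cell follicles, were not called. Cxcl13 stood at -2.39, -3.02, -2.37 and -2.82 on control arrays 1 to 4 and -2.63, -2.38, -2.11 and -1.62 on PMSG arrays 1 to 4, a difference of 0.47 ± 0.24 (limma adjusted p = 0.17). Cxcr5 stood at -6.04, -6.09, -5.53 and -5.30 on control arrays 1 to 4 and -5.22, -5.59, -5.06 and -5.62 on PMSG arrays 1 to 4, a difference of 0.37 ± 0.22 (limma adjusted p = 0.22), and both overlapped between labels. The remaining members that were tested and not called were Ccl6, Ccl11, Ccl22, Ccl24, Pf4, Ppbp, Ccr1l1, Ccr4, Ccr8 and Cxcr1. Their differences ran from -0.33 for Ccl11, an eosinophil attractant, to 0.71 for Pf4, which platelets release. Of these genes only Ccl24, an eosinophil attractant with a difference of 0.17, had arrays that did not overlap between labels.

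In 8 members too few arrays were above background for a test. Ccl1, Ccl26 and Xcr1 were well above background on 0 of 8 arrays, Cxcl5 and Cxcl11 on 2, and Ccl25, Ccr3 and Cxcr6 on 3. For Ccr3 and Cxcr6 these 3 were all PMSG arrays. Such a call says that the probe was not clearly above its local background, not that the transcript was absent.

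Many chemokine genes lie in clusters of related copies. With neighbours defined as members whose probes lay within 250 kb on rn4, a grouping chosen after the values were seen, 10 clusters were found. On chromosome 10, from 70257919 to 70380740, Ccl2, Ccl7 and Ccl12 were all lower, Ccl11 between them was not called, and Ccl1 was not tested. On the same chromosome from 71605854 to 71760324, Ccl5 and Ccl9 were higher and Ccl3 lower, while Ccl6 and Ccl4 were not called. Of the genes on chromosome 14 from 18677165 to 18825755, Cxcl1 and Cxcl2 were lower, Cxcl3, Pf4 and Ppbp were not called, and Cxcl5 was not tested. A second group on chromosome 14, from 17252192 to 17288890, held Cxcl9, Cxcl10 and the untested Cxcl11.

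On chromosome 5, from 59199811 to 59239241, Ccl27, Ccl19 and Ccl21 were all higher. On chromosome 19, from 10641376 to 10697682, Ccl17 and Cx3cl1 were higher and Ccl22 was not called at 0.50 (limma adjusted p = 0.128). Among receptor genes that neighbour each other on chromosome 8, Ccr9 was higher, Ccr1 was lower, and Ccr1l1 and Ccr2 were not called. Neighbours thus differed in direction in the second chromosome 10 group and in the chromosome 8 group. The probes of different members shared an exact run of at most 13 bases of 60 (Cxcr1 and Cxcr4). Probes were compared only with each other and not with transcripts. Whether a probe also bound the transcript of a related copy was therefore not tested.

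**Figure D4:**
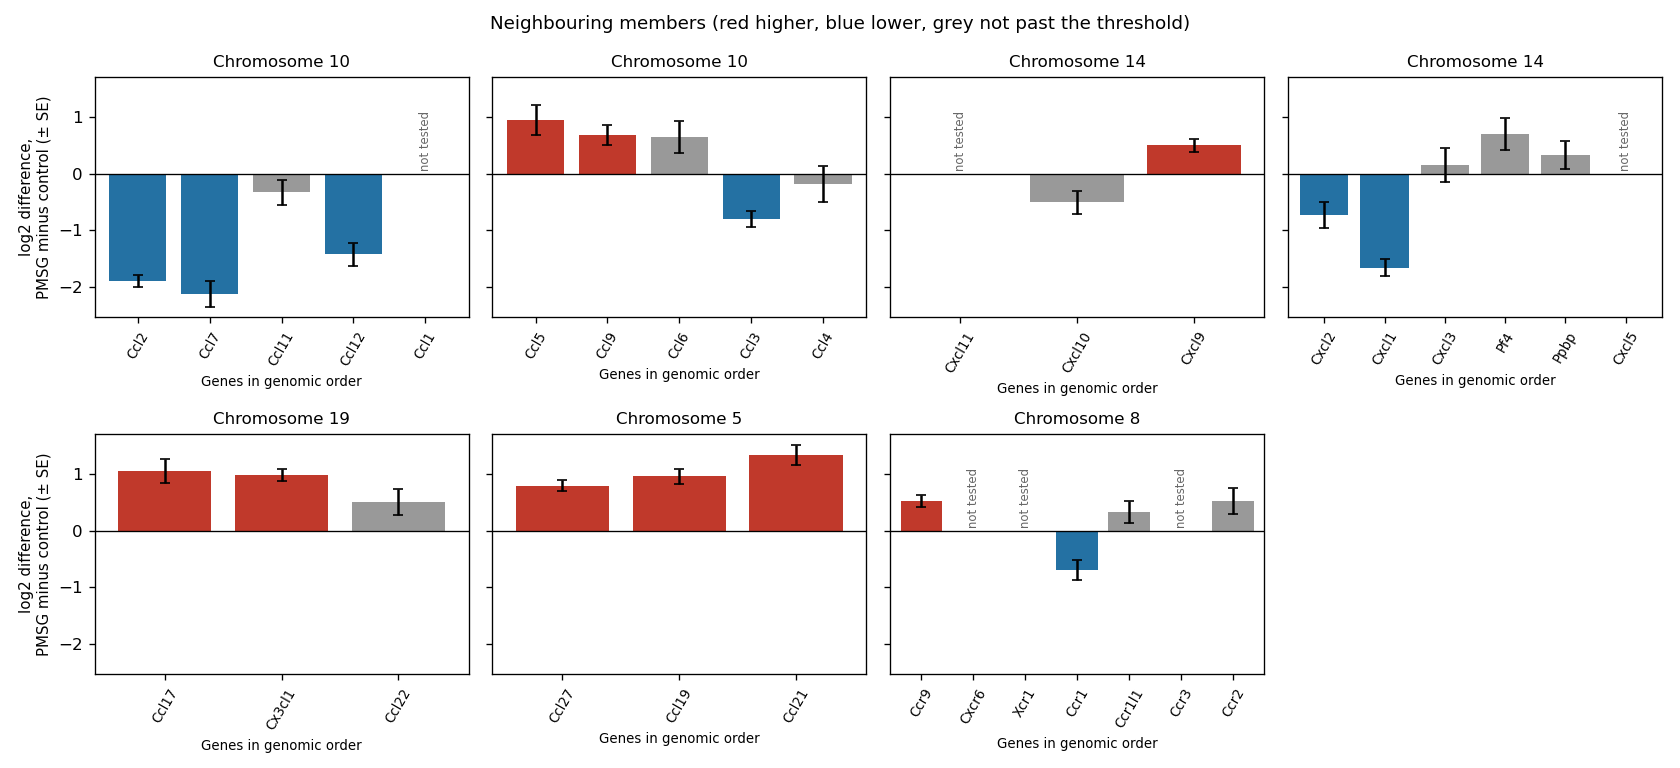
Log2 difference (PMSG minus control, bars from 0, with SE) of members in the 7 neighbour groups of more than 2 genes, in genomic order from left to right. Ccl2, Ccl7 and Ccl12 all point down, Ccl27, Ccl19 and Ccl21 all point up, and the groups of Ccl5 and of Ccr9 hold genes called in both directions.

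Genes that act around the chemokines were read from a list of 40, covering atypical receptors, signal transduction, processing and presentation, and inducers. Of 35 tested, 13 were called (37.1%), near the 34.2% of all probes, and the median was 0.05. Of the 35, 4 (11.4%) were higher and 9 (25.7%) lower, beside 17.6% and 16.6% of all tested probes. Dpp4, a membrane protease that trims and inactivates several chemokines, was higher by 1.68 ± 0.22 (limma adjusted p = 0.000824), at -2.77, -3.42, -2.63 and -3.38 on control arrays 1 to 4 and -1.53, -1.50, -1.45 and -1.01 on PMSG arrays 1 to 4. Arrb2, a beta-arrestin that uncouples and internalises receptors, was higher by 0.84 (limma adjusted p = 0.000647), and Grk5, a kinase that marks receptors for arrestin, was lower, at a difference of -1.34 (limma adjusted p = 0.000712). Grk6 (-0.58) and Adrbk1 (-0.35), kinases of the same family, and the G protein subunits Gnai3 (-0.43) and Gnai2 (-0.26) were lower as well. Sdc1 and Sdc4, proteoglycans whose heparan sulfate holds chemokines at the cell surface, were lower, at -0.98 (limma adjusted p = 0.000256) and -0.43 (limma adjusted p = 0.0335).

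Among inducers of chemokine genes, Tnf stood at -1.94, -2.05, -1.80 and -1.96 on control arrays 1 to 4 and -2.64, -2.69, -2.58 and -2.42 on PMSG arrays 1 to 4, lower, at a difference of -0.64 ± 0.10 (limma adjusted p = 0.00199). Its receptor gene Tnfrsf1a was lower, at a difference of -0.57 (limma adjusted p = 0.00359). Nfkbiz, a nuclear regulator of NF-kappa B targets, was higher by 0.76 (limma adjusted p = 0.0075). Il1b (0.45, limma adjusted p = 0.0695) and Nfkbia, the inhibitor of NF-kappa B (0.12, limma adjusted p = 0.395), were not called, nor were Nfkb1, Nfkb2 and Rela. Il6 was well above background on 0 of 8 arrays, and Ifng on 3 PMSG arrays and 0 control arrays. Rarres2, the precursor of the chemokine-like protein chemerin, was higher by 0.62 (limma adjusted p = 0.0122), while its receptor gene Cmklr1 was not called at -0.27 (limma adjusted p = 0.171). Ackr1, Pik3cg and Relb were not analysed here.

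Markers of the leukocytes that carry these receptors were higher in part in the same arrays. Of 41 tested leukocyte markers 16 (39.0%) were called higher and 1 (2.44%) lower, beside 17.6% and 16.6% of all tested probes. Their median was 0.48, beside 0.11. Between 12 (without PMSG array 1) and 21 (without PMSG array 4 or with array weights) were called over the alternative settings. Under quantile normalization 15 were higher and 4 lower. The summed signal of the markers, in units of the array's 75th percentile, ran from 24.1 to 34.7 on control arrays and from 35.2 to 40.6 on PMSG arrays. Bright probes carry most of such a sum. Here they included Laptm5, C1qa and Aif1, called higher, and C1qb, Lcp1 and Coro1a, not called. Of 5 pan-leukocyte markers 3 were higher, Ptprc by 0.69 (limma adjusted p = 0.00447), Cd53 by 0.80 and Laptm5 by 0.64. Coro1a (-0.06, limma adjusted p = 0.69) and Lcp1 (-0.06, limma adjusted p = 0.778) were not called. T and natural killer cell markers were higher in 5 of 9 (summed signal 0.895 to 1.18 against 1.23 to 2.63), among them Cd3d at 1.03, but Cd3e, first of that list, was not called at 1.19 (limma adjusted p = 0.111) and Cd2 was on 0 arrays. Of 4 dendritic markers Cd74 (1.66) and Clec9a (1.51) were higher. Flt3 (0.48, limma adjusted p = 0.0502) and Itgax (-0.61, limma adjusted p = 0.111) were not called, and the sign of Itgax was opposite. The summed signal of the dendritic markers (0.669 to 1.1 against 2.26 to 3.70) was mostly that of Cd74. Of the B cell markers, Cd79a (-0.19, limma adjusted p = 0.548) and Cd79b (1.34, limma adjusted p = 0.0696) were not called, and Ms4a1 was on 0 arrays. Both tested mast cell markers were higher, Cpa3 by 0.85 (0.0940 to 0.155 against 0.212 to 0.299). Of 3 platelet markers Itga2b was higher by 1.30, with a summed signal of 1.33 to 1.66 against 1.82 to 2.31. Gp9 (0.28, limma adjusted p = 0.173) and Gp1bb, of opposite sign (-0.41, limma adjusted p = 0.143), were not called. The part of these markers in the higher chemokine and receptor levels was not tested.

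The lower ligands moved beside other markers. Of 11 macrophage markers 3 (27.3%) were called higher, beside 17.6% of all tested probes, and none was called lower. Cd68 was higher by 0.51, Aif1 by 0.68 and C1qa by 0.62. Of the 8 not called, Cd163 (-0.54), Mrc1 (-0.36) and Cd14 (-0.29) had negative differences and the others positive ones. The summed signal of the macrophage markers ran from 12.8 to 21.9 on control arrays and from 19.3 to 24.1 on PMSG arrays. Of 7 neutrophil markers S100a8 was lower, at a difference of -1.97 (limma adjusted p = 0.0278), and the other 6 were not called. Of these, S100a9 (-1.15), Camp (-0.34) and Elane (-0.25) had negative differences, and Fpr1 (0.52), Csf3r (0.45) and Mpo (0.33) positive ones. The summed signal of the neutrophil markers, 0.440 to 1.25 against 0.324 to 0.577, overlapped between labels. Of 5 blood endothelial markers Tek (-1.20), Flt1 (-1.04) and Kdr (-0.43) were lower. Pecam1 (-0.16) and Cdh5, of opposite sign (0.54, limma adjusted p = 0.175), were not called. The summed signal of the blood endothelial markers, mostly that of Kdr, ran from 18.9 to 22.4 on control arrays and from 14.9 to 16.7 on PMSG arrays. For the lymphatic vessels that make Ccl21, Lyve1 was lower, at a difference of -1.09 (limma adjusted p = 0.00291), Pdpn was higher by 0.67 (limma adjusted p = 0.0082) and Prox1 was on 0 arrays, with a summed signal of 4.51 to 5.02 against 5.07 to 6.81. Of the ovary's own cells, Amh of granulosa cells was higher by 3.03, as 1 of 4 markers called. Inha (-0.39), Fshr (0.34) and Foxl2 (0.19) were not called. The granulosa sum, 68.4 to 105.9 against 64.2 to 85.3, was mostly that of Inha. Insl3 of theca cells was higher by 2.60, as 1 of 2 markers, and Cyp17a1 was not called (-0.22, limma adjusted p = 0.483). The theca sum, 31.1 to 40.1 against 23.2 to 48.1, was mostly that of Cyp17a1. All 3 oocyte markers were higher (1.82 to 3.33 against 6.46 to 13.0), as were 2 of 3 fibroblast markers. The fibroblast sum, 69.4 to 84.2 against 71.6 to 92.7, was mostly that of Col1a1, which was not called (0.06, limma adjusted p = 0.673). The part of any of these in the chemokine differences was not tested.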

How the data were processed

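Ovary RNA of 8 samples was hybridised to 1-colour Agilent arrays on 1 slide and, per the file headers, extracted with Feature Extraction 11.5.1.1. The deposited scanner files give processed spot intensity, already background-subtracted, and background calls. The authors also deposited log2 values, which by comparison are the log2 signals after each array's 75th percentile was taken off, with probes not centred (correlation with the own array 0.998 to 1.00, column medians -3.21 to -2.82); they served as an alternative. Columns not used numbered 0. Groups came from sample titles.

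Control and outlier spots were left out, spots of a probe averaged as log2 signals, and each array's 75th percentile subtracted. Of 30367 probes, 17 without usable spots were dropped, and 25303 that were well above background on at least 4 of 8 arrays were fitted with limma 3.58.1 in R 4.3.3 (lmFit, eBayes, no covariates, Benjamini-Hochberg, threshold 0.05). No spot was saturated. Differences are PMSG minus control with SE. The fit was tested on simulated data. The members, lists, tests and alternatives were chosen with earlier results of these data known. Every array's values are given for the 20 members with the largest called differences of at least 0.5 and for the tested members of 12 ligand-receptor pairings. Probe coordinates are those of rn4 in the scanner files; its gene annotation was not used here. RefSeq sequences are on GRCr8. A member and a marker that are part of the counts are not reported here. The number of arrays, 4 per label, limits the precision. Alternatives covered normalization, background correction, dim-probe filters, the deposited values, array weights, blocks, and each array left out.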

Additional observations from a re-analysis of the deposited data

Results flagged for a closer look

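In 5 of 96 groups of 4 arrays (48 tested members under each label) 1 array stood apart, in that its gap to the nearest other array took a larger share of the group's range than Dixon's critical value allows; chance gives about 1 in 20 groups, or 4.8 here. Ccl12 on PMSG array 2 stood at -3.33 against -2.63 to -2.54 on the other PMSG arrays (gap share 0.892). Ccl24 on PMSG array 2 stood at 3.4 against 3.10 to 3.14 (0.872). Cxcr7 on PMSG array 2 stood at -0.41 against -1.15 to -1.06 (0.875), so 3 of the 5 fell on that array. Ccl27 on control array 3 stood at -1.61 against -1.75 to -1.73 (0.886). Ccr10 on control array 1 stood at -7.35 against -6.47 to -6.42 (0.938), and its probe was not well above background there.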

How the results depend on the processing

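Over 18 alternative settings the count of differing members ran from 23 to 30 (26 as reported). That of ligands ran from 16 to 21 and that of receptors from 4 to 9. The 3 upper ends came without the filter on dim probes, where 56 members, 36 ligands and 20 receptors were tested instead of 48, 31 and 17. With those 48, 31 and 17 tested, the highest counts were 28, 20 and 8, reached with array weights. The share of all tested probes that was called also varied by setting, between 25.9% and 45% (34.2% as reported). The receptor count fell to 4 with median centring, which moved the median difference of all probes from 0.11 to -0.05. Of the 26 called genes 16 kept their call in every setting in which they were tested, 10 lost it in at least 1, and 0 changed sign. Of the 22 uncalled genes 11 were called in at least 1 setting and 3 changed sign: Ccl4 (0.0495 under normexp, and -0.37 to 0.10 with 1 array left out), Ccr7 (-0.0262 with the deposited values) and Cxcl3 (-0.12 under quantile normalization, -0.0115 with median centring, and -0.03 to 0.41 with 1 array left out). Normexp with an offset of 50 moved 12 of the 26 called differences by over 1.5 times, and quantile normalization 1; the cause was not tested. With the replicate number as a block 25 members were called, 18 ligands and 7 receptors: 3 calls were lost, those of Ccl5 (limma adjusted p = 0.081) and Ccr6 (0.0948) among them, and Cxcr1 (limma adjusted p = 0.0101) and Cxcr2 (0.0325) were gained. Deviations of same-numbered arrays correlated at 0.0444, 0.0361, 0.183 and -0.0192, so the numbers were not taken to pair the arrays. Differences of dim probes are limited by signal over background.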
